A study of Mus musculus with 2 samples.

Results

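The genes described here are P2ry12, Tmem119, Siglech, Trem2, Gpr34, Crybb1, Lag3, Selplg and Sall1, a set that is widely used to tell microglia from other macrophages. They were taken by symbol from the gene list of the deposited matrices, where all 9 were found among 32287 rows. The data were 2 droplet single-cell RNA libraries, R1 and R2, of leptomeninges, the thin inner membranes of the brain, which were peeled by hand from the hemispheres of male and female mice aged 3 months and digested to single cells. All mice carried Pdgfra-H2BGFP, an allele in which Pdgfra drives a nuclear fluorescent protein, and there was no other genotype, treatment or time point. Both libraries belong to 1 group, so what is compared is cell classes, each read in both libraries (n = 2), and the question is where these genes were read in the tissue. The labels do not say whether R1 and R2 came from separate animals. The p-values here rest on how far class levels varied between these libraries once the library itself was allowed for. In the fit the spread of each gene was drawn toward that of all genes tested. A very small p-value thus does not come from the gene's own spread over 2 libraries alone. Whether it covers variation between animals is not known.

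Microglia are the resident macrophages of the brain parenchyma, and border macrophages are those of the meninges and the perivascular spaces. Both depend on signalling through the CSF1 receptor, and microglia take on a gene program of their own under TGF-beta and the transcription factor SALL1. P2RY12 is a receptor for ADP that steers microglial processes to sites of injury, GPR34 is a receptor for lysophosphatidylserine, TREM2 is a lipid-sensing receptor that signals through TYROBP, and SIGLECH is a lectin that also marks plasmacytoid dendritic cells. LAG3 is an inhibitory receptor best known from T cells, SELPLG (PSGL-1) is the selectin ligand of leukocytes, TMEM119 is a membrane protein that bone-forming mesenchymal cells also make, and CRYBB1 is a crystallin of the eye lens.

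In genome build mm10, P2ry12 (ENSMUSG00000036353) lies at chr3:59216272-59262871 on the minus strand, within a region where Med12l runs on the plus strand. Gpr34 (ENSMUSG00000040229) lies at chrX:13632089-13640858 on the plus strand and overlaps Cask on the minus strand. For these 2 genes reads of the overlapping partner could only be told apart by strand, and whether the counting used strand is not given in the sources used here. Tmem119 (ENSMUSG00000054675, chr5:113793729-113800516) and Selplg (ENSMUSG00000048163, chr5:113818536-113832644) are neighbours on the minus strand of chromosome 5, 18.0 kb apart with 1 annotated gene, Gm19931, between them. Crybb1 (ENSMUSG00000029343, chr5:112255815-112269585, plus strand) is on the same chromosome. The others are Siglech (ENSMUSG00000051504, chr7:55768178-55778925, plus strand), Trem2 (ENSMUSG00000023992, chr17:48346401-48354147, plus strand), Lag3 (ENSMUSG00000030124, chr6:124904361-124911705, minus strand) and Sall1 (ENSMUSG00000031665, chr8:89027235-89044162, minus strand).

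RefSeq promoter windows (GRCm38.p6) were at hand for 5 of the 9 genes. The 250 bases before the start are shown for P2ry12 and for Siglech, the gene most like it in pattern over the cell classes. The same is shown for Trem2 and Crybb1, which differed least between microglia and border macrophages. The sequences are written 5′ to 3′ on the strand of the gene. Capitals mark AGGAAGT, the core bound by the macrophage factor PU.1, and TGANTCA, an AP-1 motif, on either strand. The motifs do not overlap in these sequences.
P2ry12, chr3:59262986-59263235, minus strand: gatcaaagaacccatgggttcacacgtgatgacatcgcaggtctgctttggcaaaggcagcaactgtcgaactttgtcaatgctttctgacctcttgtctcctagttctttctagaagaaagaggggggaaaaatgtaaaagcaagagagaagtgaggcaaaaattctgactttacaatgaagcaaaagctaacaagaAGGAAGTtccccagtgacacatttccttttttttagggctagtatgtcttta
Siglech, chr7:55767934-55768183, plus strand: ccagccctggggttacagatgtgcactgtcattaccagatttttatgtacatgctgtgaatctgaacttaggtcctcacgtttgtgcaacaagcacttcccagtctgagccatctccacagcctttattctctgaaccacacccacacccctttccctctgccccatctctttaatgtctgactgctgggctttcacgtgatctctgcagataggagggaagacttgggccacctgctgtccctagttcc
Trem2, chr17:48346151-48346400, plus strand: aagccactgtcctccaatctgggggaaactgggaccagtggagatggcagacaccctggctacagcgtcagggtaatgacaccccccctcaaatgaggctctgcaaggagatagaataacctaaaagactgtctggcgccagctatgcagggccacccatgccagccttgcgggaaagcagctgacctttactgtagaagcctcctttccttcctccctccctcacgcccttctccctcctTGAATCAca
Crybb1, chr5:112255570-112255819, plus strand: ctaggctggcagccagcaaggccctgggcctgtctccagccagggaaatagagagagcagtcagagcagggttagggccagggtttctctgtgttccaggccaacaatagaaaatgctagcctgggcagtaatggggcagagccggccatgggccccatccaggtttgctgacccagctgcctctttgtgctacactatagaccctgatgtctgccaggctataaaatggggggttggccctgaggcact
P2ry12 held the PU.1 core 52 bases before its start, and Trem2 held the AP-1 motif 9 bases before its start. Sall1, not shown, held the PU.1 core in 1 of its 3 windows, 181 bases before that start. Neither motif was found in the windows of Siglech and Crybb1. Of 32851 RefSeq windows of 300 bases, 9.35% held the PU.1 core, 7.81% the AP-1 motif and 2.72% the PU.1-IRF composite motif, which was in none of the members' windows. These matches describe the letters alone.

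The matrices listed 7276 barcodes in R1 and 6743 in R2, with 14586462 and 12359040 UMIs, molecule tags that stand for single captured transcripts. After barcodes under 400 genes or over 10% mitochondrial UMIs had been left out, 2985 and 3035 cells remained, with medians of 1643 and 1249 UMIs. The libraries shared 74 barcode sequences among kept cells, of which 0 were microglia-like in both. Doublet calling marked 0.1004% and 0.0987% of cells. The expected rate, 0.05 as a fraction of cells, is far higher, so the calling did not work here and doublets are likely to remain. Clusters were drawn without the 9 genes and named from other markers, but genes that vary with the 9 took part, so the classes are not fully independent of them.

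Microglia-like cells numbered 183 in R1 (6.13% of kept cells) and 98 in R2 (3.23%), and border macrophage-like cells 526 (17.6%) and 674 (22.2%). Defining markers fitted both names. Levels are given as CPM, the UMIs of a gene in a class and library scaled to a fixed total. Cx3cr1, the fractalkine receptor gene, stood at 3476 and 3372 CPM in microglia-like cells of R1 and R2, against 517 and 518 in border macrophage-like cells. Mrc1, the mannose receptor, stood at 19.7 and 19.2 against 3229 and 3364 CPM, and the scavenger receptor gene Cd163 at 0 in both libraries against 449.9 and 612 CPM. Fcrls, also taken as a microglia marker, did not separate them, with 1732 and 1425 against 1745 and 1714 CPM. The other classes with at least 50 cells per library were fibroblast-like (1396 and 1545 cells), endothelial-like (328 and 316), monocyte-like (85 and 86) and mural-like cells (53 and 58), the last being pericytes and smooth muscle. The monocyte-like cluster was led by MHC class II genes beside Ccr2 and Plac8, and dendritic cell markers scored next. A fold change below is on the log2 scale with its standard error from edgeR's quasi-likelihood test over both libraries.

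**Figure D1:**
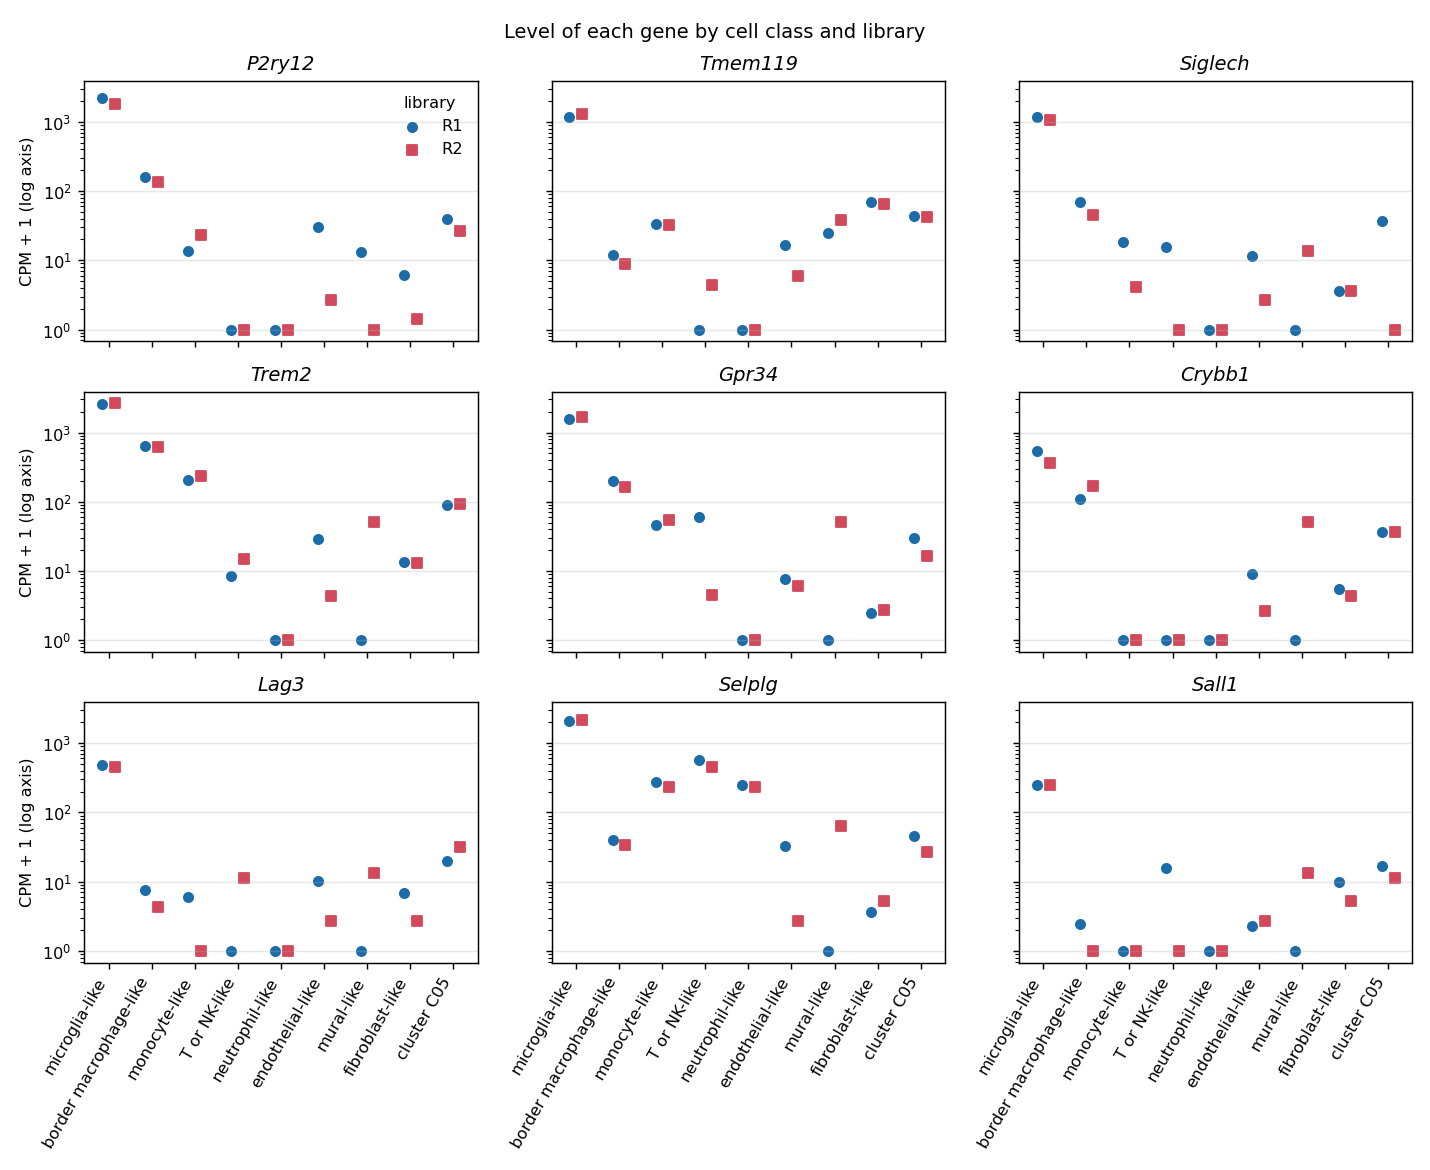
Level of each of the 9 genes (CPM + 1, log axis) in 9 cell classes, with 1 point per library (circles R1, squares R2). In all panels both microglia-like points lie above those of every other class. Among the classes drawn, border macrophage-like cells come next for P2ry12, Siglech, Trem2, Gpr34 and Crybb1, T or NK-like cells for Selplg and fibroblast-like cells for Tmem119.

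Sall1, the transcription factor of the set, had 247.7 and 245.8 CPM in microglia-like cells of R1 and R2 (138 and 64 UMIs). Border macrophage-like cells held 2 and 0 Sall1 UMIs, 1.45 and 0 CPM, although they gave 1378173 and 1516761 UMIs in all. The ratio was 171 in R1 (exact 95% interval 46.4 to 1423), and in R2 microglia-like cells were at least 124-fold higher, taking 3 counts for the 0. The fitted difference was 8.09 ± 0.44, which for so few counts depends on the prior count of the fit (adjusted p = 1.0e-44). Fibroblast-like cells held 24 and 10 Sall1 UMIs (8.90 and 4.26 CPM). The next level after microglia-like cells was in the unnamed cluster C10, which has neuronal and astrocyte genes among its leading genes. It had 31.1 and 13.95 CPM on only 3 and 2 UMIs. This range overlapped that of the unnamed cluster C05, 15.7 and 10.2 CPM. Monocyte-like cells held 0 UMIs, which allows up to 7.57 and 9.39 CPM, again taking 3 counts for the 0.

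P2ry12, the ADP receptor gene, had 2181 and 1828 CPM in microglia-like cells (2004 ± 249, SD, n = 2). Border macrophage-like cells had 159 and 133 CPM (146 ± 18.7), monocyte-like cells 12.6 and 21.9, and fibroblast-like cells 5.19 and 0.426. The microglia-like values lay far above the border macrophage-like ones in both libraries, 13.7-fold in R1 and 13.8-fold in R2, and the fitted difference was 3.64 ± 0.20 (adjusted p = 4.1e-44). No P2ry12 UMI was seen in T or NK-like cells, which allows up to 22.2 and 10.3 CPM.

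Gpr34, the lysophosphatidylserine receptor gene, had 1569 and 1701 CPM in microglia-like cells (1635 ± 94.0) against 195 and 162 CPM in border macrophage-like cells. The ranges did not overlap, with ratios of 8.04 and 10.5 and a fitted difference of 3.06 ± 0.18 (adjusted p = 5.3e-39). Monocyte-like cells followed with 45.4 and 53.2 CPM, and fibroblast-like cells had 1.48 and 1.70 CPM.

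Trem2 had the smallest ratio of the surface receptors between the macrophage classes. It had 2595 and 2623 CPM in microglia-like cells (2609 ± 19.95), 641 and 613 CPM in border macrophage-like cells and 204 and 232 CPM in monocyte-like cells. These 3 classes kept this order in both libraries without overlap, and fibroblast-like cells stood at 12.6 and 11.9 CPM. Microglia-like cells were 4.05-fold and 4.28-fold above border macrophage-like cells, a fitted difference of 1.92 ± 0.19 (adjusted p = 1.2e-17).

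Siglech, the lectin gene, had 1179 and 1060.1 CPM in microglia-like cells against 67.5 and 44.2 CPM in border macrophage-like cells. The fitted difference was 4.20 ± 0.20 (adjusted p = 5.4e-53), with ratios of 17.5 and 24.0 in the libraries. The second-highest level was not in a macrophage class but in the small unnamed cluster C19, which is led by immunoglobulin genes, with 139.6 and 210.05 CPM. There all 14 and 23 Siglech UMIs came from 1 cell of R1 and 2 cells of R2. All 3 of these cells also held UMIs of Bst2, Ccr9, Cox6a2, Ly6d and Tcf4, markers of plasmacytoid dendritic cells, 1 of the 3 held Klk1, a further such marker, and none held Cd79a, the B cell receptor chain gene.

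Lag3 had 483 and 446 CPM in microglia-like cells (464 ± 26.3). Border macrophage-like cells had 6.53 and 3.30 CPM on 9 and 5 UMIs, a range that overlapped that of fibroblast-like cells, 5.93 and 1.70 CPM. The fitted difference was 6.40 ± 0.29 (adjusted p = 6.4e-57), and the ratios were 73.9 (38.4 to 163) and 135 (56.3 to 424). T or NK-like cells, the class in which LAG3 is best known, held 0 and 3 Lag3 UMIs in 33 and 51 cells, so a level up to 22.2 CPM in R1 was not detectable.

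Selplg had 2064 and 2182 CPM in microglia-like cells (2123 ± 83.3) and was the member most shared with other leukocytes. T or NK-like cells had 569 and 444 CPM, monocyte-like cells 278 and 232 CPM and neutrophil-like cells 249 and 233 CPM. Border macrophage-like cells came below all of these with 39.2 and 32.3 CPM, and fibroblast-like cells had 2.60 and 4.26 CPM. Microglia-like cells were 52.7-fold and 67.5-fold above border macrophage-like cells (5.75 ± 0.24, adjusted p = 2.1e-62), but 3.63-fold and 4.91-fold above T or NK-like cells, a ratio given without a test because R1 held 33 of those cells.

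Tmem119 had 1168 and 1279 CPM in microglia-like cells (1224 ± 78.3). In border macrophage-like cells it had 10.9 and 7.91 CPM, below its level in fibroblast-like cells, 69.7 and 64.7 CPM. The difference between microglia-like and border macrophage-like cells was 6.87 ± 0.25 (adjusted p = 6.4e-71), with ratios of 107 (64.6 to 193) and 162 (91.3 to 316). Fibroblast-like cells held 188 and 152 Tmem119 UMIs and 14 and 1 of P2ry12, and microglia-like cells 651 and 333 of Tmem119 and 1215 and 476 of P2ry12. The source of the fibroblast-like UMIs was not tested. Among the fibroblast-like clusters, C15, which has the pial genes Coch, Dcn and Lum among its leading genes, had 105 and 166 CPM.

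Crybb1, the crystallin gene, had the smallest fitted difference, although in R1 alone the ratio of Trem2 was smaller, and its own ratios differed between the libraries. It had 538 and 357 CPM in microglia-like cells (448 ± 128) against 109.6 and 169 CPM in border macrophage-like cells (139 ± 41.9), and 0 in monocyte-like cells of both libraries. The ranges of microglia-like and border macrophage-like cells did not overlap, but the ratio was 4.91 (4.03 to 6.02) in R1 and 2.12 (1.65 to 2.69) in R2, intervals that cover counting error only. The fitted difference was 1.59 ± 0.19 (adjusted p = 1.6e-13), with 2.13 in R1 alone and 0.85 in R2 alone.

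All 9 genes were higher in microglia-like than in border macrophage-like cells, where 8.97% of 10333 genes tested were called higher (adjusted p below 0.05). Their median difference was 4.20, against −0.10 over all genes tested. Fibroblast-like, endothelial-like and mural-like cells, weighted equally, served as the non-myeloid classes. All 9 genes were higher in microglia-like cells than there, where 20.9% of genes were called higher, 20.7% lower and 41.6% in either direction. The differences ran from 5.60 ± 0.18 for Tmem119 to 8.41 ± 0.21 for P2ry12. A comparison with monocyte-like cells was added after the classes were seen and made in the main setting only. Against them all 9 were called higher, where 9.43% of genes were. Selplg (2.77 ± 0.21) and Trem2 (3.29 ± 0.22) differed least there, while Crybb1 was at least 71.1-fold and 38.1-fold and Sall1 at least 32.7-fold and 26.2-fold higher than 3 counts in monocyte-like cells. The microglia-like comparisons share the microglia-like libraries, so they are not independent of each other.

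**Figure D2:**
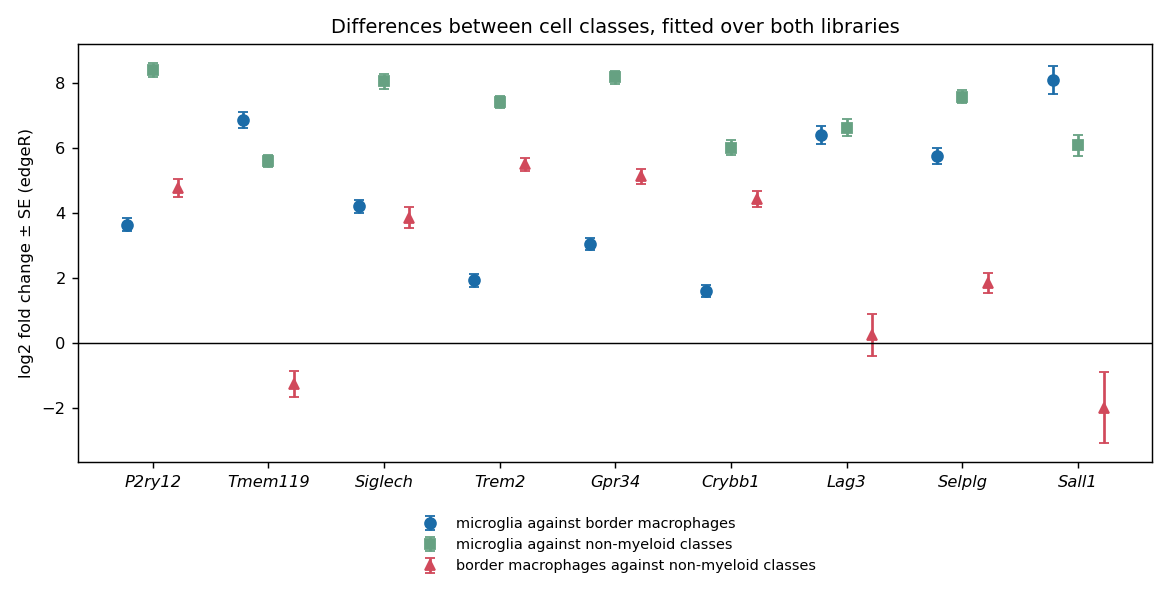
Fitted log2 fold change of each gene (points, with standard errors as bars) for microglia-like against border macrophage-like cells (circles), microglia-like against non-myeloid classes (squares) and border macrophage-like against non-myeloid classes (triangles). All circles and squares lie above 0; the triangles of Trem2, Gpr34, P2ry12, Crybb1 and Siglech lie between 3.85 and 5.50, and that of Tmem119 at −1.27.

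Dissociation-response genes, the immediate-early and heat shock genes that cells switch on during digestion, also moved with this comparison. Of 17 tested, 14 were higher in microglia-like than in border macrophage-like cells, among them Egr1 (4.999 ± 0.24), Junb (3.43 ± 0.22) and Btg2 (3.10 ± 0.21). Their summed level was 6771 and 5930.3 CPM against 1604 and 1179 CPM, and the part of this in the differences of the 9 genes was not tested. Cells with at least 1% Malat1, a nuclear RNA, were 44.8% and 40.8% of microglia-like and 27.6% and 24.2% of border macrophage-like cells. In a fit of such cells alone, with a lower limit of cells per class, all 9 genes were called higher. The share of all genes called in that fit is not given here. What part the difference in Malat1 had in the levels of the 9 genes was not tested.

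The border macrophage-like cells were then set against the non-myeloid classes, to see which members stood above that level outside microglia. P2ry12 (4.77 ± 0.27), Siglech (3.85 ± 0.33), Trem2 (5.50 ± 0.20), Gpr34 (5.13 ± 0.24), Crybb1 (4.42 ± 0.25) and Selplg (1.84 ± 0.30) were higher, 6 of 9 where 26.7% of genes were called higher. These calls are against the mean of the non-myeloid classes, not against each class. For Selplg the border macrophage-like range, 39.2 and 32.3 CPM, overlapped that of mural-like cells, 0 and 62.3 CPM. Tmem119 was lower (−1.27 ± 0.39, adjusted p = 0.0040), where 22.9% of genes were called lower and 49.7% in either direction. Lag3 (0.24 ± 0.64, adjusted p = 0.79) and Sall1 (−2.005 ± 1.09, adjusted p = 0.12) did not pass. Both genes entered the fit only through their microglia-like levels. Border macrophage-like cells held 9 and 5 Lag3 UMIs and 2 and 0 Sall1 UMIs, so this comparison says little about them. The call for Selplg was lost with DESeq2 (1.79, adjusted p = 0.144) and with equal UMI totals (1.15, adjusted p = 0.265), and that for Tmem119 when the UMIs were split at random, with one share for clustering and the other for the test (−0.91, adjusted p = 0.145).

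The members' proportions differed between the macrophage classes. In R1 microglia-like cells held 1215 P2ry12, 1446 Trem2, 651 Tmem119 and 1150 Selplg UMIs, and border macrophage-like cells held 219, 883, 15 and 54. In R2 the numbers were 476, 683, 333 and 568 against 201, 930, 12 and 49. Border macrophage-like cells thus held more Trem2 than P2ry12 UMIs by a wider margin than microglia-like cells did, and few of Tmem119 and Selplg. No test was made of these proportions.

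Single cells were compared with each cell thinned to 1000 UMIs, which left 140 and 68 microglia-like and 374 and 415 border macrophage-like cells, with median depths before thinning of 3547 and 3467.5 against 2046.5 and 1998 UMIs. A Trem2 UMI was seen in 85% and 92.6% of microglia-like and 41.2% and 41.7% of border macrophage-like cells. For P2ry12 the shares were 78.6% and 69.1% against 12.3% and 11.6%, and for Tmem119 57.1% and 72.1% against 1.34% and 0.964%. Sall1, with the fewest UMIs of the set, was seen in 22.1% and 20.6% of microglia-like cells and in 0 of 374 and 0 of 415 border macrophage-like cells, which allows up to 0.802% and 0.723% of cells with a Sall1 UMI at this depth and sets no limit on cells that express it. Unthinned, 2 of 526 and 0 of 674 border macrophage-like cells held one. In fibroblast-like cells, taken as the background, shares were 0.741% and 0% for P2ry12 and 1.06% and 1.44% for Trem2, but 5.82% and 4.69% for Tmem119. Unthinned, a P2ry12 UMI was seen in 25.5% and 20.6% of border macrophage-like cells.

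A thinned microglia-like cell held a median of 5 (R1) and 6 (R2) of the 9 genes and 11 and 12 of their UMIs, and 0 of these cells held none. Border macrophage-like cells held a median of 1, with at most 3 and 4, and 37.7% and 35.9% held none. Of the fibroblast-like cells 90.1% and 92.7% held none, and of the monocyte-like cells 55.4% and 68.3%. The distributions overlapped between 1 and 4 genes per cell, and 90.7% and 95.6% of microglia-like against 4.55% and 3.37% of border macrophage-like cells held at least 3.

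**Figure D3:**
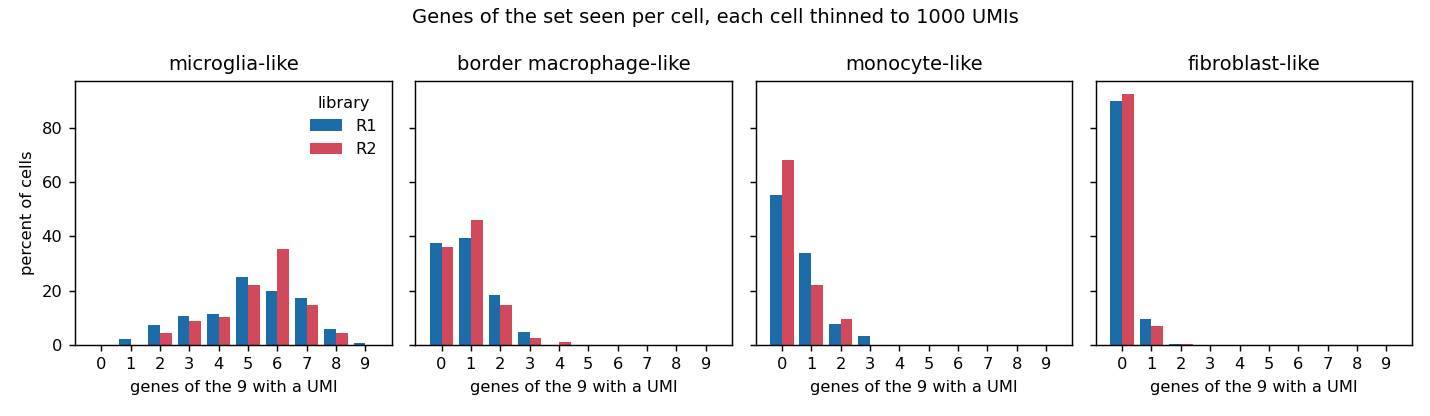
Percent of cells (vertical axis) by the number of the 9 genes with a UMI (horizontal axis), in 4 classes and both libraries (blue R1, red R2), each cell thinned to 1000 UMIs. Microglia-like cells centre on 5 and 6 genes, border macrophage-like cells on 1, and most fibroblast-like cells hold none.

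Counted without thinning, at least 6 of the 9 genes were seen in 164 of 281 microglia-like cells (58.4%) and in 15 of 5739 other kept cells (0.261%). The 15 were 7 border macrophage-like cells, 5 cells of cluster C05, which is led by neuronal genes, 2 endothelial-like cells and 1 erythroid-like cell. The endothelial-like pair and the erythroid-like cell, all of R1, held up to 9 of the genes, and whether such barcodes hold 2 cells was not tested. Since these cells were picked by the 9 genes themselves, a fall of the genes without them is largely built in and is only a description. Without the endothelial-like pair, P2ry12 in endothelial-like cells of R1 fell from 29.0 to 8.34 CPM, against 1.67 CPM in R2, and Gpr34 from 6.60 to 0 CPM. In border macrophage-like cells of R1, P2ry12 was 147 CPM without the 6 such cells and 159 CPM with them, and Trem2 621 and 641 CPM.

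Microglia-like cells gave the largest share of the UMIs of all members but Trem2 and Crybb1 in both libraries, and they gave 7.30% and 4.15% of all UMIs of kept cells. The microglial share was 84.3% and 82.9% for Lag3, 79.4% and 68.2% for P2ry12, 79.8% and 73.6% for Siglech, 74.2% and 80% for Sall1, 76.4% and 65.5% for Selplg and 72.1% and 61.3% for Gpr34. Tmem119 had 70.6% and 62.6% there and 20.4% and 28.6% in fibroblast-like cells. Trem2 and Crybb1 changed sides between the libraries. Microglia-like cells held 56.7% of Trem2 and 60.4% of Crybb1 UMIs in R1 but 39.0% and 25.2% in R2, where border macrophage-like cells held 53.1% and 69.4%. R2 had fewer microglia-like and more border macrophage-like cells, and its Crybb1 level was also lower in the first and higher in the second.

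**Figure D4:**
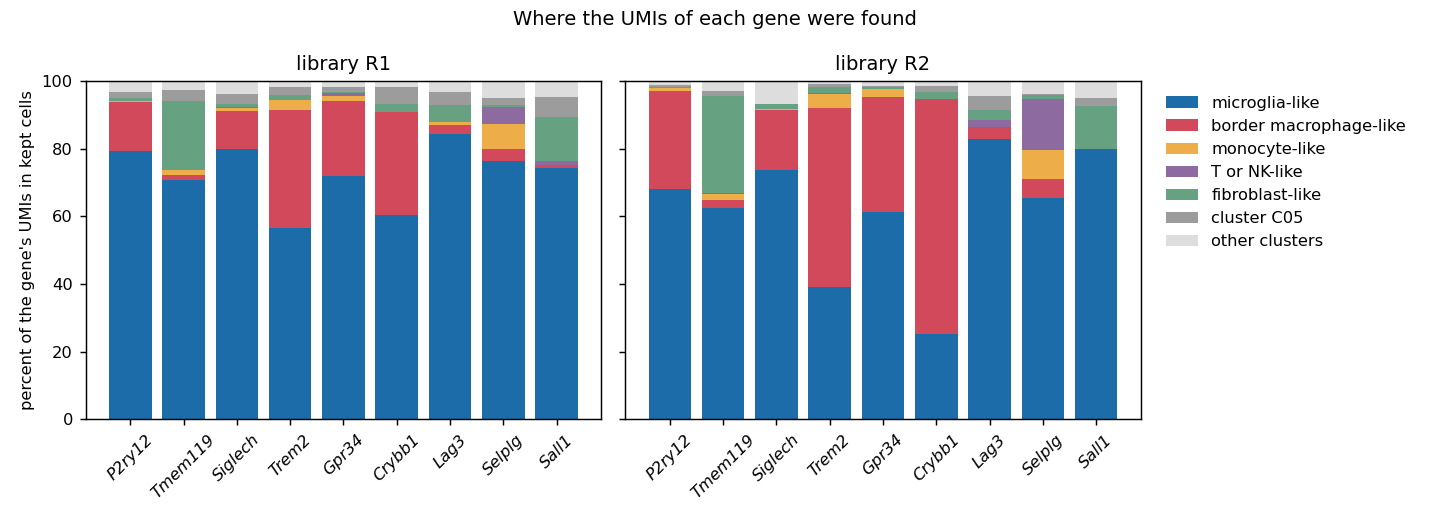
Percent of each gene's UMIs in kept cells (vertical axis, stacked to 100) found in each class, for R1 (left) and R2 (right). Blue marks microglia-like and red border macrophage-like cells; the red part is largest for Trem2 and Crybb1, and the green fibroblast-like part is largest for Tmem119.

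Microglia-like cells fell into 2 clusters that differed in nuclear RNA. In cluster C12 (82 and 43 cells) 97.6% and 93.0% of cells had at least 1% Malat1, with median depths of 5083 and 4908 UMIs, and in cluster C11 (101 and 55 cells) 1.98% and 0% did, with 1094 and 934 UMIs. Sall1 had 302 and 287 CPM in the Malat1-rich and 80.6 and 123 CPM in the Malat1-poor cluster. P2ry12 had 2505 and 2135 against 1180 and 907 CPM, Gpr34 1804 and 1992 against 843 and 830 CPM, and Selplg 2429 and 2499 against 938 and 1230 CPM. Trem2 was closer, with 2766 and 2811 against 2067 and 2060 CPM, and Lag3 had no common direction, with 499 and 410 against 432 and 553 CPM. Crybb1 went the other way, with 499 and 297 in the Malat1-rich against 660 and 538 CPM in the Malat1-poor cluster. These clusters were drawn on the same cells, so the values are a description.

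The Malat1-poor cluster differed in other measures too, and their part in the members' levels was not tested. Its median mitochondrial share was 6.24% and 4.59%, against 2.195% and 1.996% in the Malat1-rich cluster. The microglia naming markers summed to 10269 and 11653 against 18259 and 19364 CPM. General fibroblast markers summed to 740.3 and 969 against 143 and 297 CPM, dural border markers to 953 and 2260 against 197 and 364 CPM, and neuron markers to 535 and 246 against 171 and 25.6 CPM. Hemoglobin and other erythroid genes summed to 49389 and 4120 CPM there against 844 and 973 CPM in the Malat1-rich cluster, and dissociation-response genes to 1283 and 799 against 8551 and 7639 CPM. The border macrophage-like clusters C04 (Malat1-rich) and C07 (Malat1-poor) showed the same side for P2ry12, 193 and 155 against 94.2 and 99.7 CPM, and for Crybb1 had 118 and 176 against 94.2 and 159 CPM. Within the Malat1-rich clusters microglia-like cells were 12.96-fold and 13.8-fold above border macrophage-like cells for P2ry12 and 3.84-fold and 4.12-fold for Trem2. Within the Malat1-poor clusters they were 12.5-fold and 9.09-fold above for P2ry12 and 4.20-fold and 4.04-fold for Trem2. For other members the ratio moved more with the clusters. For Selplg it was 53.3 and 90.5 in the Malat1-rich and 34.5 and 31.3 in the Malat1-poor clusters. For Tmem119 it was 199 in R1 in the Malat1-rich clusters, where border macrophage-like cells held 6 UMIs (1 in R2), and 36.6 and 48.7 in the Malat1-poor ones. The ratio of Crybb1 was lower in the Malat1-rich clusters, 4.24 and 1.69 against 7.004 and 3.39, and so was that of Siglech, 16.0 and 19.96 against 19.3 and 32.6. The ratio of Gpr34 was 8.42 and 9.74 against 5.30 and 8.46.

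**Figure D5:**
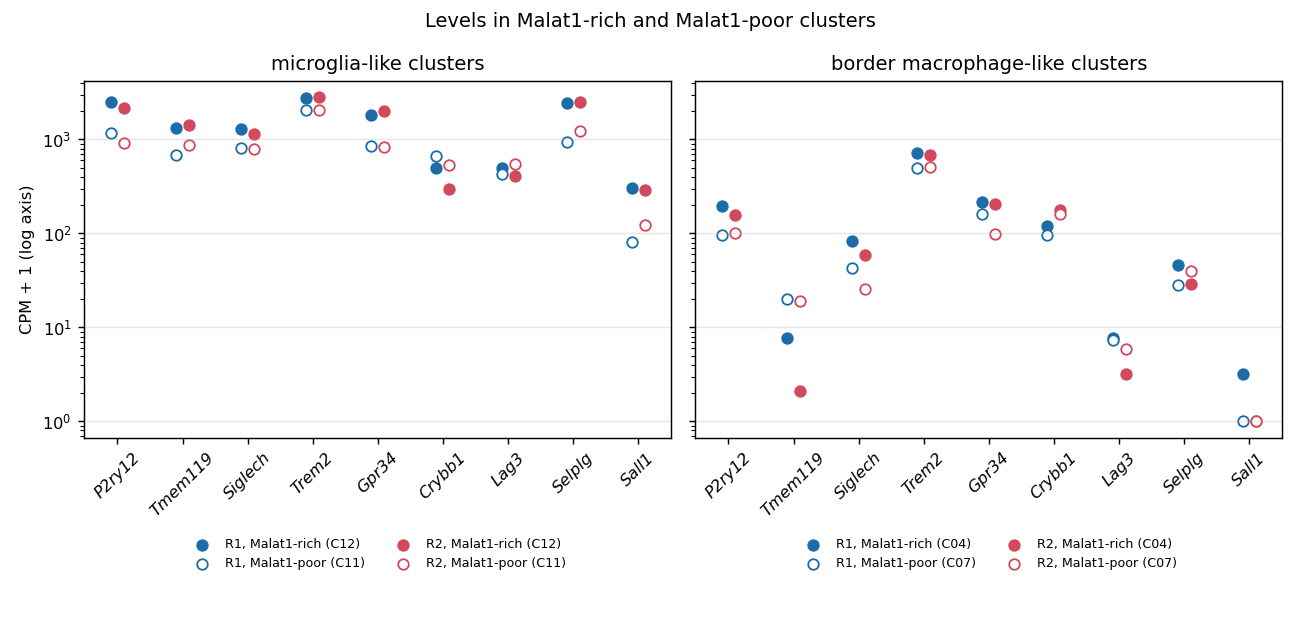
Level of each gene (CPM + 1, log axis) in the Malat1-rich (filled) and Malat1-poor (open) clusters of microglia-like cells (left) and border macrophage-like cells (right), 1 point per library (blue R1, red R2). On the left the filled points of P2ry12, Gpr34, Selplg and Sall1 lie well above the open ones, while those of Crybb1 lie below.

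Genes of the same pathways were read from lists, beside the 8.97% of all genes called higher and 11.1% called lower in microglia-like against border macrophage-like cells. Of 25 further genes known as enriched in microglia, 20 were higher and 1 lower, with a median of 1.72. Among them Adgrg1, an adhesion receptor gene, had 355 and 349.5 against 4.35 and 5.27 CPM (6.03 ± 0.29), Nav3 held 1 and 0 UMIs in border macrophage-like cells against 125 and 47, and Ecscr 0 and 2 against 159 and 58. Sparc, a matricellular protein gene, was higher by 4.58 ± 0.23. The leukotriene synthase gene Ltc4s was the lower one (−0.77 ± 0.18), and Csf1r, the receptor gene both macrophage types depend on, did not pass (0.50 ± 0.20, adjusted p = 0.055).

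Around SALL1 and TGF-beta, 8 of 19 genes were higher and 2 lower. The paralogue Sall3 had 61.0 and 69.1 CPM in microglia-like cells against 1 and 0 UMIs in border macrophage-like cells. The TGF-beta receptor gene Tgfbr1 had 942 and 929 against 82.7 and 69.2 CPM (3.49 ± 0.19). The transcription factor gene Maf went the other way, with 696 and 729.8 against 1963 and 2229 CPM (−1.70 ± 0.20). The other receptor subunit gene Tgfbr2 (−0.05 ± 0.19, adjusted p = 0.91) and Spi1, which encodes PU.1 (0.24 ± 0.18, adjusted p = 0.42), did not pass.

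Around P2RY12, 3 of 9 tested purinergic genes were higher and 2 lower. The adenosine receptor gene Adora3 held 44 and 14 UMIs in microglia-like and 0 in border macrophage-like cells, at least 36.3-fold and 27.2-fold higher, and P2ry13 was higher by 1.60 ± 0.18. The ATP-gated channel genes P2rx7 and P2rx4 were lower, at −2.39 ± 0.22 and −1.52 ± 0.23. Around TREM2, 3 of 10 genes were higher, Plcg2 (1.63 ± 0.33), Inpp5d (1.27 ± 0.19) and Adam10 (0.73 ± 0.23), and 1 was lower, the ligand gene Apoe, with 2308 and 1986 against 56222 and 52809 CPM (−4.79 ± 0.27). The adaptor gene Tyrobp had 2441 and 2777 against 2416 and 2702 CPM and did not pass (−0.11 ± 0.20, adjusted p = 0.77).

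The relatives of the remaining members gave short lists. Of 4 Siglec genes tested, 1 was called, Siglec1, with 0 UMIs in microglia-like and 26 and 41 in border macrophage-like cells (at least 3.50-fold and 2.35-fold lower). From a list of checkpoint receptors, LAG3 ligands and Cd4, 4 genes were tested. The checkpoint genes Havcr2 (5.49 ± 0.41) and Vsir (2.13 ± 0.18) were higher. Cd4, with 0 UMIs in microglia-like cells, was at least 10.2-fold and 5.04-fold lower. Of 5 genes of selectins and of the glycosylation and sulfation that PSGL-1 needs, Gcnt1 (1.49 ± 0.32) and Tpst2 (0.88 ± 0.19) were higher and Tpst1 (−2.43 ± 0.71) lower. The value for Tpst1 rests on 3 and 0 UMIs in microglia-like against 17 and 38 in border macrophage-like cells. The crystallin gene Cryba4 had 93.3 and 92.2 against 38.5 and 56.0 CPM (0.87 ± 0.28), and Abhd12, an enzyme that breaks down lysophosphatidylserine, was higher by 0.73 ± 0.17.

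Genes of the disease-associated microglia state, which TREM2 is known to promote, gave 4 higher and 6 lower of 13. Cd9 was higher by 5.28 ± 0.23 and Ctsd by 1.49 ± 0.20, and Lyz2 and Fth1 were lower, at −4.11 ± 0.25 and −1.66 ± 0.22. The list's median was −1.06.

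Likeness of pattern was measured as Pearson's r of log2(CPM + 1) class means over the 6 classes tested, among 6335 genes, as a description over points that share libraries and depth. Siglech was the gene most like P2ry12, closely followed by Usf2 (both r = 0.989), and Ccnq was most like Siglech (0.9901). Kcnk13, a potassium channel gene, was most like Trem2 (0.998), Bmyc most like Gpr34 (0.987), Syngr1 most like Crybb1 (0.987), and Csmd3 and Nav3 most like Lag3 (both 0.991). Ldlrad4 was most like Sall1 (0.982). Olfml3 was most like Tmem119 (0.976), with 1136 and 999 CPM in microglia-like, 25.4 and 23.7 in border macrophage-like and 112 and 92.8 CPM in fibroblast-like cells. Olfml3 was among the markers that named the microglia-like clusters.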

How the data were processed

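The deposited matrices hold unnormalized UMI counts. Cell Ranger 4.0.0 wrote them, per the file headers, and the build was mm10, per the submitters' processing notes. The deposited gene and barcode lists (unit: other) pair each symbol with its Ensembl identifier. From the counts, barcodes under 400 genes or over 10% mitochondrial UMIs were removed, leaving 2985 of 7276 and 3035 of 6743 barcodes. In R1, 3631 barcodes were over the mitochondrial limit and 1314 under the gene limit, and in R2 2905 and 1369. The filter kept 76.1% to 91.8% of the UMIs of each of the 9 genes, and 52.3% and 50.7% of all UMIs.

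Cells were clustered in scanpy 1.11.5 (2000 variable genes, 30 components, 15 neighbours, Leiden resolution 1.0 with igraph 0.11.9), with the 9 genes and all tested lists left out of the variable genes and of the naming markers. A cluster took a name where the mean log2 level of a marker list stood at least 2 above its mean over clusters and 1 above the next class. It also needed a marker of that class among its 10 leading genes or a score of 4. No other class could have more markers among those leading genes. The leading genes were taken from all genes, so members could hold places there, as in the microglia-like clusters, but did not count as markers. These limits were set with the clusters in view. Doublets were called with Scrublet at an expected rate of 0.05 as a fraction of cells.

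For each class with 50 or more cells in both libraries the counts were added up by library and tested with edgeR 4.0.16 in R 4.3.3 (quasi-likelihood, TMM, filterByExpr, library as a block, Benjamini-Hochberg over 10333 genes, threshold 0.05). There were 6 classes in the fit, which left 5 residual degrees of freedom. Its biological coefficient of variation was 0.118. All 9 genes passed the filter, Sall1 and Lag3 only through their levels in microglia-like cells. Library pairs the class sums because the cells of 1 suspension share it. Standard errors were taken as the absolute log2 fold change divided by √F. Intervals are exact 95% Poisson or binomial intervals and cover counting error only. Where a count was 0, the limit given takes 3 counts in its place, which is lower than the upper end of such an interval. The script was tested on simulated data. Alternatives were RLE scaling, DESeq2 1.42.0, other filters, clusterings and depths, no block, single libraries and a split of the counts.

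The members and lists were chosen with earlier results of these data known. Named list genes are up to 4 per list and comparison with the largest called change in the direction of both libraries and at least 50 CPM on the higher side. Csf1r, Spi1, Tgfbr2, Tyrobp, Ltc4s, Siglec1, Tpst1 and Ctsd, and the single cells with many of the 9 genes, were chosen after their values were seen. Some named genes are not reported here. Promoter sequences are from RefSeq (GRCm38.p6), and gene positions from GENCODE on mm10.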

Additional observations from a re-analysis of the deposited data

How the results depend on the processing

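The calls of all 9 genes as higher in microglia-like than in border macrophage-like cells, and than in non-myeloid classes, held in each of the 14 tested settings, with largest adjusted p-values of 0.0135 (P2ry12, with DESeq2) and 4.1e-10 (Sall1, with equal UMI totals). Of the border macrophage-like calls against non-myeloid classes, 5 rather than 6 remained with DESeq2 and with equal UMI totals. There Lag3, which was never called, turned to −0.45 with at most 5% mitochondrial UMIs, −0.23 with the UMIs split at random between clustering and test, −0.12 among cells with at least 1% Malat1 and −0.24 with equal UMI totals, and Sall1 turned to 0.31 with the members among the variable genes. The cause was not tested. With each fibroblast-like cluster as a class of its own, Sall1 passed as lower (−2.33, adjusted p = 0.0106). That call rests on 2 and 0 Sall1 UMIs in border macrophage-like cells, for a gene that entered the fit through microglia-like cells. No conclusion is drawn from it.

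Of microglia-like against border macrophage-like cells, 629 rather than 1144 genes were called lower with DESeq2. With the split counts, where 7931 genes were tested, 585 were higher and 633 lower, 1230 were lower in microglia-like cells than in non-myeloid classes, and 1480 were lower in border macrophage-like cells than in those. With equal UMI totals, where 2969 genes were tested, the 3 comparisons gave 240 higher and 189 lower, 704 and 619, and 714 and 611. Without the replicate block, the numbers were 852 and 1033, 2098 and 2071, and 2663 and 2333, and no member's call changed. From single libraries, with no test, the difference between microglia-like and border macrophage-like cells ranged from 0.85 (Crybb1, R2) to 6.78 (Tmem119, R2).

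The test among cells with at least 1% Malat1 could not be run with 50 cells per class, since R2 held 40 such microglia-like cells, and was run with 30 instead, a choice made after seeing the data. So were the fibroblast-like clusters as classes and the comparison with monocyte-like cells. That comparison was not repeated in any alternative. The monocyte-like class held only 16 and 7 cells at a higher clustering resolution, and again with the members and lists among the variable genes. No cluster took that name under a looser mitochondrial limit or with the split counts. Thinned to 500 UMIs, Sall1 was seen in 9.84% and 10.2% of microglia-like cells. Depth limits the members most where sums are small, as for Sall1 and Lag3 in border macrophage-like cells.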
